A study of Vitis vinifera with 12 samples.

Results

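The step from 50 to 60 days after full bloom was followed in fruit of Victoria, a white table grape cultivar of Vitis vinifera. It was covered by 3 RNA-seq libraries (a, b and c) at 50 days and 3 at 60 days, 6 of the 12 libraries of the series. The other libraries, at 40 and 80 days, entered the same model and are used to place the step in a longer course. All were made from polyadenylated RNA of fruit of this 1 cultivar, and the labels record no treatment. Per the labels' protocol, RNA of 3 biological replicates was extracted separately and then pooled, so libraries of an age may be technical repeats, and p-values measure the spread between libraries only. The values are FPKM, which are fragments per kilobase of transcript and per 1000000 fragments. Genes were kept if they reached 1 FPKM in at least 3 of the 12 libraries, which left 14743 of 22580 deposited IDs. The deposited IDs carry no gene names, and 0 of them matched the reference gene table, so genes are given by ID, with no function, and the fruit could not be checked against marker genes.

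A grape berry grows in a pair of phases separated by a lag, and ripening begins at the end of that lag, a stage called véraison. The young berry divides and expands its cells, stores malate and tartrate and makes tannins. The ripening berry softens, loads hexose sugars, loses malate and changes its scent. Which of these stages the fruit had reached at 50 or 60 days is not given in the labels.

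Most genes stayed close to their 50-day level. The median size of the difference in log2(FPKM + 1), over all genes tested, was 0.23, and the quartiles of the difference were -0.25 and 0.20. The 95% interval of the difference lay within 1 log2 unit of 0 for 11954 genes (81.1%) and within 0.5 units for 5925 (40.2%). Genes were called when limma's moderated test gave a Benjamini-Hochberg adjusted p under 0.05 and the difference was at least 1. By this rule 637 genes changed (4.32% of those tested), of which 297 rose (2.01%) and 340 fell (2.31%). In bulk fruit, fewer cells of a type and less RNA per cell cannot be told apart. Of the calls, 23 rises passed the filter on low values only through the 60-day libraries and 6 falls only through the 50-day libraries, so these genes could enter only by differing. Another 141 genes differed by at least 1 on the log2 scale without passing the test.

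Calls were mostly of modest size and clean separation. The median called rise was 1.36 and the median called fall 1.34 on the log2 scale, and 63.0% of the rises and 64.4% of the falls were under 1.5. Rises of at least 3 numbered 7, and falls of at least 3 numbered 8. In 295 of the 297 rises and 336 of the 340 falls, the ages were fully separated, with no value of one inside the range of the other. The same libraries made the calls, which favours such separation, so these counts are a description only. Over all genes tested, the libraries of 60 days lay wholly above those of 50 days in 2814 genes (19.1%) and wholly below in 3190 (21.6%).

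The balance of rises and falls depended on the scaling of the libraries. With median-of-ratios scaling 322 genes rose and 321 fell. With every library scaled to a sum of 1000000, 226 rose and 413 fell, and the median gene itself shifted by -0.10 on the log2 scale, against -0.02 on the deposited values.

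**Figure D1:**
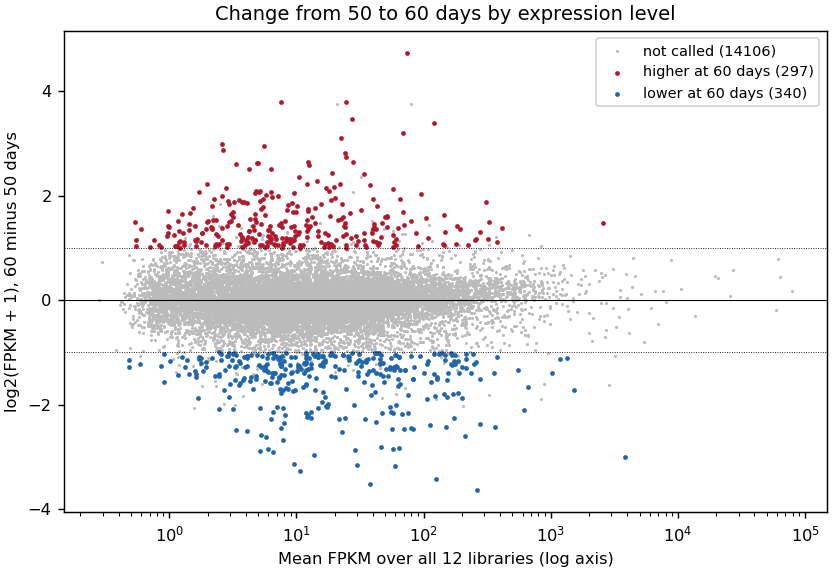
Each point is 1 of the 14743 tested genes, with its mean FPKM over the 12 libraries on a log axis and the 60 minus 50 day difference of log2(FPKM + 1) on the other axis. Dotted lines mark a difference of 1 in each direction; the 297 genes called higher and the 340 called lower lie outside them, and among genes of at least 1000 FPKM 1 is called higher and 5 lower.

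Rises and falls were spread differently over expression levels, taken as the mean of all 12 libraries. Over all tested genes 2.01% rose and 2.31% fell. Among 1800 genes under 2 FPKM, 43 rose (2.39%) and 23 fell (1.28%). Among 4449 genes of 2 to 10 FPKM, 126 rose (2.83%) and 113 fell (2.54%). Of all calls, 23 rises and 6 falls passed the filter only through the age where they were higher. They could be counted only by differing, and their spread over the levels was not examined. The order turned among 6958 genes of 10 to 100 FPKM, with 108 rises (1.55%) and 147 falls (2.11%). Of 1442 genes of 100 to 1000 FPKM, 19 rose (1.32%) and 52 fell (3.61%). Falls outnumbered rises in this class under both other scalings too (49 against 21, and 64 against 14). For genes of 2 to 10 FPKM the order turned when libraries were scaled to a sum of 1000000, with 98 rises and 134 falls. The median gene of 100 to 1000 FPKM was nevertheless slightly higher at 60 days (0.08 on the log2 scale), and slightly lower (-0.02) with that scaling.

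Of 94 genes with a mean of at least 1000 FPKM, 1 rose and 5 fell. The rising gene stood at 868, 892 and 1419 FPKM at 50 days and at 1475, 4211 and 3841 FPKM at 60 days (log2 difference 1.48 ± 0.33 SE, adjusted p = 0.0115 by limma). Its 60-day library a lay next to the highest 50-day library, while b and c were far above. It had been at 202 to 234 FPKM at 40 days and reached 5529 to 6269 FPKM at 80 days. The largest of the 5 falls went from 4068, 3161 and 4232 FPKM to 782, 377 and 350.5 FPKM (-3.01 ± 0.56 SE, adjusted p = 0.00453 by limma). All of its 60-day libraries lay well below all 50-day ones, library a being the highest of them. The same gene had 9461 to 12790 FPKM at 40 days and 88.0 to 509 FPKM at 80 days. The other 4 falls were between -1.72 and -1.12 on the log2 scale.

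The genes named here are the 2 largest called rises and the 2 largest called falls with a mean of at least 10 FPKM at the higher age and no overlap between the ages. Of the called genes, 157 rises and 225 falls met these criteria. VIT_10s0116g00530 had the largest rise. It stood at 3.001, 11.22 and 7.72 FPKM in libraries a, b and c at 50 days, and at 157, 241 and 207 FPKM at 60 days. Every 60-day value was far above the highest 50-day value (log2 difference 4.73 ± 0.33 SE, adjusted p = 3.61e-05 by limma). At 40 days it was at 25.6 ± 2.18 FPKM (SD, n = 3), and at 80 days at 63.0 ± 11.2 FPKM. The gene thus had its lowest and its highest mean of the series at the ends of this step, and the groups of all 4 ages were separate.

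VIT_11s0052g01320 had the next largest rise. Its values were 6.42, 4.43 and 4.79 FPKM at 50 days and 70.3, 85.3 and 101 FPKM at 60 days (log2 difference 3.80 ± 0.37 SE, adjusted p = 0.00025 by limma). The 60-day level stood alone. Its values were 0.729, 1.28 and 3.26 FPKM at 40 days and 2.05, 5.95 and 6.93 FPKM at 80 days, so that the 80-day libraries lay on both sides of the 50-day ones.

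VIT_13s0067g02300 had the largest fall. It stood at 237, 101 and 134 FPKM at 50 days and at 3.87, 19.2 and 16.4 FPKM at 60 days (-3.64 ± 0.61 SE on the log2 scale, adjusted p = 0.00284 by limma). Library a was the highest at 50 and the lowest at 60 days. At 80 days the gene reached 1359, 322 and 747 FPKM, above every earlier library, after 46.3, 51.2 and 97.0 FPKM at 40 days. The 60-day level was thus a low point between the 2 highest ages, with wide spread in both.

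VIT_08s0007g02240 fell and stayed low. It was at 29.2, 92.8 and 45.8 FPKM at 50 days and at 5.05, 2.74 and 2.87 FPKM at 60 days (-3.52 ± 0.42 SE, adjusted p = 0.000565 by limma). Library b at 50 days still had the level of 40 days, where the values were 93.8, 89.7 and 82.4 FPKM, while a and c lay below it. At 80 days the values were 4.61, 6.88 and 1.81 FPKM, on both sides of those at 60 days.

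**Figure D2:**
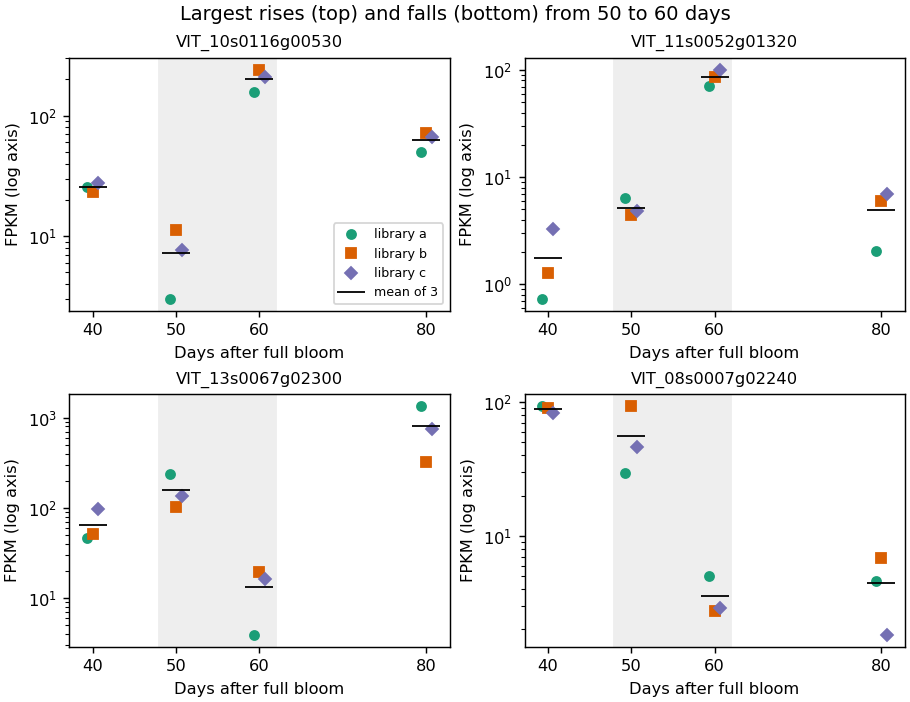
FPKM (log axis) of the 4 named genes in each of the 12 libraries by days after full bloom, with the mean of the 3 libraries as a bar and the 50 to 60 day step shaded. The upper genes peak at 60 days; VIT_13s0067g02300 dips to a mean of 13.2 FPKM at 60 days before its highest values, and VIT_08s0007g02240 stays under 7 FPKM from 60 days on.

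VIT_11s0052g01320 belonged to a group of neighbouring genes that rose together. IDs of the VIT_ form carry a chromosome number, a scaffold number and a running number, so neighbours can be read from the ID order. On scaffold 52 of chromosome 11, 86 IDs were tested. The 6 that rose lay within a stretch of 9 deposited IDs, of which 7 were tested, and 0 of the other 79 tested IDs of the scaffold were called. The filter had a part in this count. Of the 6 risers, 3 passed it only through the 60-day libraries, while the other 3, VIT_11s0052g01320 among them, also reached 1 FPKM in at least 3 libraries of other ages. The 2 deposited IDs that were not tested had at most 1.19 FPKM. The stretch was singled out after its values were seen, so the count describes it and does not test it. The 6 rises were between 1.50 and 3.80 on the log2 scale, with limma adjusted p of at most 0.00287. The remaining ID of the stretch, at 1.41 ± 0.36 FPKM at 50 days and 2.97 ± 0.90 at 60 days, did not reach the minimum difference (0.70 ± 0.20 SE).

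Summed over the 6 risers, the level was 17.7, 20.7 and 29.3 FPKM in the 50-day libraries and 244, 326 and 321 FPKM in the 60-day libraries. At 80 days the sum was back at 4.42, 24.0 and 22.4 FPKM, which overlapped the 50-day range. At 40 days it was 365, 362 and 166 FPKM, nearly all of it from the fourth ID of the stretch, which alone had 364, 360 and 162 FPKM there. Among the other 5 risers the highest 40-day value was the 3.26 FPKM of VIT_11s0052g01320. The fourth ID fell to 9.19, 13.9 and 23.6 FPKM at 50 days and stood at 126, 193 and 175 FPKM at 60 days, so that it had a pair of high ages where its neighbours had 1. In each of the 6, the 50 to 60 day step differed from the step before and from the step after by the contrast tests given further on. All 6 were also called with both other scalings and without library a at 60 days. The 6 were chosen by this step, which enters both contrasts, and 3 of them passed the filter only through the 60-day libraries. The contrasts and the other calls reuse the same libraries, so they are a description only. Neighbouring IDs can be near-identical copies whose reads are hard to assign, and whether these are was not tested.

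**Figure D3:**
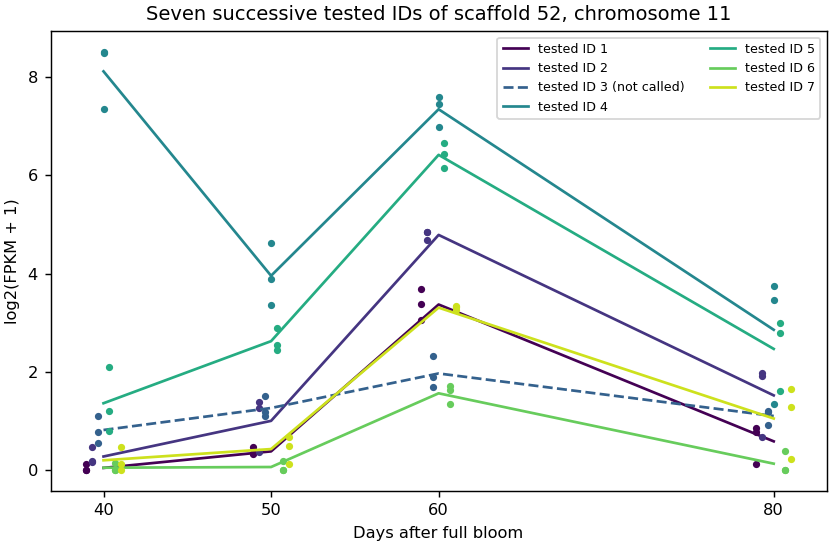
log2(FPKM + 1) of the 7 successive tested IDs of scaffold 52 on chromosome 11 by age, with points for single libraries and lines through the means of 3. The 6 called IDs (solid lines) peak or peak again at 60 days, among them VIT_11s0052g01320 as the fifth, and the ID that was not called is dashed.

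Over all scaffolds, the stretch included, a gene that rose and had a next tested ID was followed by another rise in 18 of 275 cases (6.55%), beside 2.0% of all such IDs. With the stretch left out, which was done after its values were seen, it was 14 of 269 (5.2%), beside 1.96%. For falls over all scaffolds it was 11 of 319 (3.45%), beside 2.32%. The filter had a part in these shares and in the runs below. Of all rises, 23 passed it only through the 60-day libraries, 3 of them in the stretch, so they entered the ID order only by rising. Of all falls, 6 passed it only through the 50-day libraries. Shares without these genes were not computed. Next IDs called in the opposite direction numbered 1 of 275 for rises, beside 2.32% of all such IDs that fell. For falls they numbered 1 of 319, beside 2.0% that rose. Without library a at 60 days these numbers were 4 of 316 and 6 of 365. Runs of at least 3 successive tested IDs called in 1 direction occurred 3 times, all of them rises: 4 IDs in the stretch on chromosome 11, 3 on scaffold 20 of chromosome 5 (1.60 to 2.22 on the log2 scale) and 3 on scaffold 1 of chromosome 18 (1.29 to 1.87). Scaffold 57 of chromosome 12 had 11 rises and 1 fall among 78 tested IDs (15.4% called). In the other scaffolds with at least 5 calls in 1 direction the share was 2.93% to 6.98%. These scaffolds too were picked after their values were seen.

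Few genes went from near absence to clear presence or back. With at most 1 FPKM in all libraries of one age and at least 5 FPKM in all of the other, 4 genes appeared and 2 disappeared. All 6 were called, but this rule itself implies the minimum difference of 1 on the log2 scale. Of those that appeared, 2 belonged to the stretch on chromosome 11. They stood at 0.245 to 0.390 and 0.0876 to 0.582 FPKM at 50 days, and at 7.25 to 11.9 and 8.59 to 9.15 FPKM at 60 days. Both passed the filter only through the 60-day libraries. Another went from 0.215 to 0.395 FPKM up to 6.78 to 7.51 FPKM, but had already been at 3.61 to 8.79 FPKM at 40 days. The last went from 0.166 to 0.622 FPKM up to 6.04 to 11.1 FPKM, after 1.41 to 6.38 FPKM at 40 days. Of the genes that disappeared, 1 was listed at 0 in all 60-day libraries. It had 0, 0 and 6.17 FPKM at 40 days, 5.25 to 15.7 FPKM at 50 days and 12.99 to 55.5 FPKM at 80 days. The other went from 6.22 to 24.9 FPKM down to 0 to 0.841 FPKM. It had been at 15.9 to 50.2 FPKM at 40 days and stood at 0.173 to 0.628 FPKM at 80 days. Without library a at 60 days the numbers were 10 and 8.

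The 80 minus 40 day difference, which shares no library with the 60 minus 50 day difference, placed these genes in the longer course. Of the 297 genes that rose, 118 (39.7%) were also higher at 80 than at 40 days and 54 (18.2%) lower. Over all genes tested, 7.06% were higher and 16.1% lower at 80 days (23.1% called). Of the 340 genes that fell, 188 (55.3%) were also lower at 80 days and 24 (7.06%) higher. The first group made up 11.3% of all genes higher at 80 days and the second 7.93% of all genes lower at 80 days. The model estimates a single spread for each gene, so for a given size of difference, genes with less scatter can pass more easily in both. Scaling to a sum of 1000000 left 73 of 226 rising genes higher at 80 days (32.3%, beside 4.84% of all genes).

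The remaining rises and falls had no called long-term difference, 125 (42.1%) of the rises and 128 (37.6%) of the falls. For 63 of the genes that rose (21.2%) and 52 of those that fell (15.3%), the 95% interval of the 80 minus 40 day difference lay within 1 log2 unit of 0. Over all genes tested this held for 59.4%. The called genes had a larger median SE, at 0.25 for rises and 0.26 for falls against 0.15 over all genes tested. Their wider intervals by themselves lower the share that lies within 1 unit. In the median over the rising genes, log2(FPKM + 1) was 2.28 at 40 days, 2.13 at 50, 3.69 at 60 and 2.97 at 80 days. Over the falling genes the medians were 4.51, 4.18, 2.65 and 3.07. These genes were chosen by their 60 minus 50 day difference. The 40 and 80 day values took part in the choice through the filter and the spread that the model estimates over all ages. With only the 2 ages compared in the model, 681 genes were called, 616 of them among the 637.

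**Figure D4:**
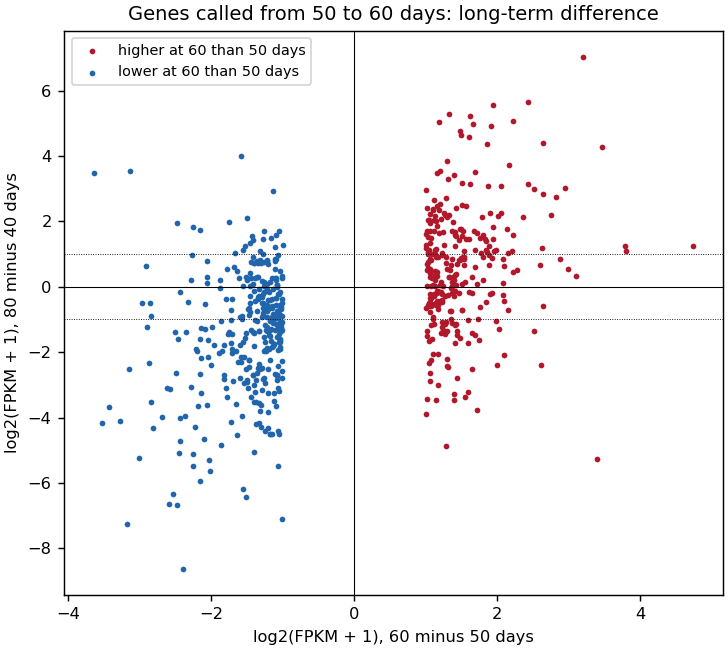
For each of the 637 genes called from 50 to 60 days, the 80 minus 40 day difference of log2(FPKM + 1) is plotted against the 60 minus 50 day difference; no library enters both axes. Of the 297 rises 118 were called higher at 80 than at 40 days, and of the 340 falls 188 were called lower.

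The step differed from its neighbours in many genes. A contrast in the same limma fit asked whether the 50 to 60 day step differed from the equally long 40 to 50 day step, and 2034 genes passed both thresholds (13.8%). In 1327 (9.0%) the later step was the more positive one, with a median of -1.17 on the log2 scale from 40 to 50 days and 0.36 from 50 to 60 days. In 707 (4.8%) it was the more negative one, with medians of 0.91 and -0.61. Against the 60 to 80 day step, which spans 20 days, 1778 genes differed (12.1%). In 1131 (7.67%) the 50 to 60 day step was the more positive, with medians of 0.54 from 50 to 60 days and -1.20 from 60 to 80 days. In 647 (4.39%) it was the more negative, with medians of -0.68 and 0.84. Each contrast uses the libraries of the shared age in both steps, and the medians describe genes chosen on those same steps.

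Most of the summed difference in FPKM between the age means lay in genes that were not called. Such sums also take in the scatter between libraries, so they do not show how much of the pool changed. Adding up the differences between age means gave gains of 184450 FPKM and losses summing to -104311 FPKM. The 10 largest gains made up 49.9% of all gains, and the 10 largest losses 26.7% of all losses. Of these 10 gains 1 was called (2.01% of all tested genes were called higher) and 7 did not overlap between the ages (19.1% of all lay wholly higher). Of the 10 losses 2 were called (2.31% of all) and 9 did not overlap (21.6% of all). These genes were picked for a large difference between the same ages, which favours separation, so the counts are a description only. Called genes held 5.51% of the gains and 20.3% of the losses. The largest gain was from 56394, 47406 and 40989 FPKM to 81481, 90347 and 76483 FPKM, with every 60-day library above every 50-day one (0.79 ± 0.26 SE, adjusted p = 0.0553 by limma). The next was from 92193, 58009 and 38028 FPKM to 71846, 90466 and 77766 FPKM, where the ages overlapped (0.44 ± 0.40 SE, adjusted p = 0.486 by limma). The largest loss was from 56341, 60087 and 54399 FPKM to 45814, 53136 and 50599 FPKM (-0.19 ± 0.24 SE, adjusted p = 0.623 by limma). All 6 libraries had 9 genes in common among their 10 highest, and 12 genes held such a place in any of them.

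The shares of the pool held by called genes were small at both ages. The 297 rising genes held 0.449%, 0.463% and 0.522% of the summed FPKM in the 50-day libraries and 1.01%, 1.39% and 1.43% in the 60-day libraries. The 340 falling genes went from 2.97%, 2.71% and 2.57% to 1.01%, 0.761% and 0.793%. At 80 days the shares were 1.14% ± 0.057 (SD, n = 3) and 0.971% ± 0.11, and at 40 days 0.621% ± 0.0046 and 4.13% ± 0.58. Since the 50 and 60 day values chose the genes, their shares at these ages are a description only.

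Of 9 summaries of whole libraries, 5 did not overlap between the ages. The 10 highest genes held 30.4% ± 2.0 (SD, n = 3) of all FPKM in the 50-day libraries and 34.5% ± 1.2 in the 60-day libraries. The 100 highest held 49.0% ± 1.7 and 51.7% ± 1.2, and the 1000 highest 73.2% ± 0.98 and 75.2% ± 0.91. These shares are nested, so they are not separate results. The difference was 4.03 percentage points for the 10 highest genes, 2.71 for the 100 highest and 2.03 for the 1000 highest. The larger share at 60 days thus lay in the 10 highest genes. Genes of at least 1000 FPKM numbered 87 ± 3.5 and 96.7 ± 3.8, but with libraries scaled to a sum of 1000000 the difference of 9.67 turned to -3.67. Genes of at least 10 FPKM numbered 8354 ± 59 and 8200 ± 50. That difference of -154 genes was -401 with scaling to a sum of 1000000 and -78.7 with median-of-ratios scaling. Each of these 5 had an exact two-sided permutation p of 0.1, the smallest that 3 against 3 libraries allow, so none of the 9 could reach 0.05. Genes above 0 numbered 18111 ± 236 and 18102 ± 157 (exact permutation p = 0.9). The summed FPKM was 1148000 ± 65211 and 1228200 ± 51002 (exact permutation p = 0.3). The depth of the libraries is not given by an FPKM table.

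Within the 60-day group, library a lay nearest to the 50-day libraries. Its Pearson correlation of log2(FPKM + 1) over genes was 0.965 to 0.967 with the 50-day libraries, while b and c had 0.954 to 0.963. It was the lowest of the 3 libraries in 198 of the 297 genes that rose (66.7%) and the highest in 230 of the 340 that fell (67.6%). Over all genes with a higher 60-day mean it was the lowest in 45.6%, and over those with a lower mean the highest in 41.6%. VIT_13s0067g02300 went the other way, with library a the furthest from the 50-day values. Within the 50-day group, library c was the lowest in 200 of the 340 genes that fell (58.8%), beside 37.8% over all genes with a lower 60-day mean. The rises did not share this. Among the 297, library b was the highest in 118 (39.7%) and library c in 97 (32.7%). Over all genes with a higher 60-day mean, these shares were 36.3% and 33.7%.

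A measure that takes its direction from other libraries again placed library a of the 60-day group nearest to 50 days. Over the 3411 genes called between 40 and 80 days, each library was placed on the line from the 40-day mean (0%) to the 80-day mean (100%) in log2(FPKM + 1). The 50-day libraries lay at 46.6%, 46.8% and 49.5%, and the 60-day libraries at 59.2%, 62.3% and 62.8%. The means were 47.7% ± 1.6 and 61.4% ± 1.9 (SD, n = 3), without overlap, with library a the lowest at 60 days and library c the highest at 50 days. Without library a at 60 days 734 genes were called, 572 of them among the 637, and without b or c the number was 506 in each case. What sets library a apart was not tested.

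**Figure D5:**
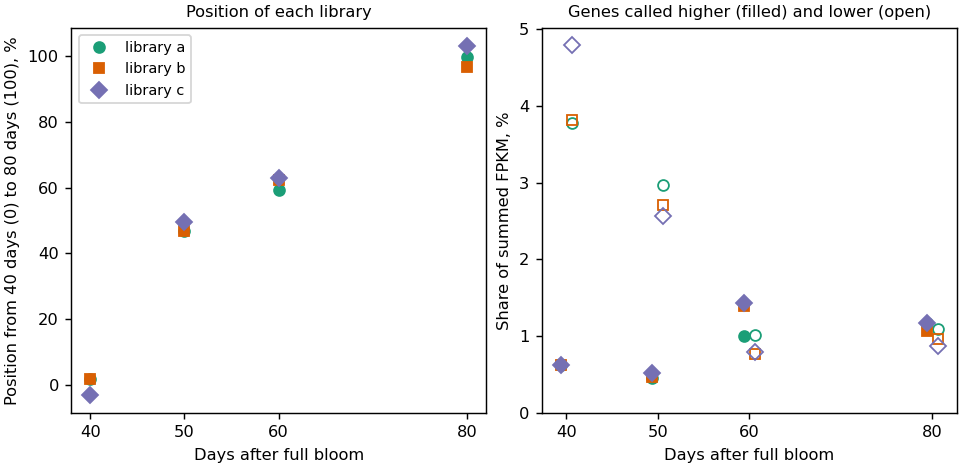
Left, the position of each library on the line from the 40-day mean (0%) to the 80-day mean (100%) over 3411 genes; right, the share of summed FPKM in the genes called higher (filled) and lower (open) from 50 to 60 days. The 60-day libraries lie at 59.2% to 62.8% against 46.6% to 49.5% at 50 days, and 60-day library a is the one nearest to 50 days in both panels.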

How the data were processed

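The authors deposited 1 table of FPKM values for 12 libraries. Cufflinks, TopHat2, Trimmomatic 0.36, FastQC and edgeR appear in the submitters' processing notes, with no roles. The genome build is not given in the sources used here, nor is the annotation. Columns were matched to samples by the labels, and 0 were left over. FPKM are not counts, so log2(FPKM + 1) was fitted with limma 3.58.1 in R 4.3.3, with 1 mean per age over all 12 libraries, 8 residual degrees of freedom and an intensity trend. p-values were Benjamini-Hochberg adjusted over 14743 genes. The pseudocount of 1 understates changes of low genes. The fit was tested on simulated data for 60 minus 50 days (14743 genes), with independent normal noise. The 200 changed genes were drawn only from genes with a mean log2(FPKM + 1) above 3. The fit called 91.0% of those changed by 1.5 log2 units, 98.5% at 2 and 95.5% at 3, and 2 of 14543 unchanged genes. Recovery of lower genes, and of changes under 1.5, was not simulated. Library summaries were compared by exact permutation with scipy 1.17.1 (Python 3.11.15). Named genes were the 2 largest called rises and falls with at least 10 FPKM at the higher age and no overlap. Lists of genes by product name could not be filled. The comparison, thresholds and groups were chosen with earlier results of these data known. Alternatives were other pseudocounts, filters, scalings and model settings, the replicate letter as a block, and each library of 50 and 60 days left out.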

Additional observations from a re-analysis of the deposited data

Results flagged for a closer look

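The 50 to 60 day step differed, by a contrast within the limma fit, from the 40 to 50 day step in 2034 genes and from the 60 to 80 day step in 1778 genes. All 4 named genes were among both. They were named for their 60 minus 50 day difference, which enters each contrast, so a large contrast follows in part from that choice.

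For VIT_10s0116g00530 the step exceeded the one before by 6.55 ± 0.57 SE on the log2 scale (adjusted p = 0.000108 by limma) and the one after by 6.39 ± 0.57 SE (adjusted p = 7.15e-05 by limma). For VIT_11s0052g01320 these differences were 2.53 ± 0.65 SE (adjusted p = 0.0164 by limma) and 7.75 ± 0.65 SE (adjusted p = 5.21e-05 by limma). For VIT_13s0067g02300 they were -4.89 ± 1.05 SE (adjusted p = 0.00721 by limma) and -9.48 ± 1.05 SE (adjusted p = 0.000255 by limma). For VIT_08s0007g02240 they were -2.71 ± 0.72 SE (adjusted p = 0.0193 by limma) and -3.69 ± 0.72 SE (adjusted p = 0.00509 by limma). In this gene the steps before and after did not pass the test, at -0.81 ± 0.42 SE and 0.17 ± 0.42 SE.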

How the results depend on the processing

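The 4 named genes kept their direction and their call in each of 18 alternatives. With a pseudocount of 5, 299 genes were called from 50 to 60 days (127 higher, 172 lower), and 1230 and 1112 genes differed from the step before and after; by construction, this lowers the fold of genes near 0. With no minimum fold the numbers were 2852 (1311 and 1541), 3699 and 3005. With single libraries left out, called genes numbered 506 to 734 (236 to 342 higher, 266 to 392 lower), and 1600 to 2050 and 1222 to 1737 genes differed from the neighbouring steps. Scaling to a sum of 1000000 left 73 of the genes that rose higher at 80 than at 40 days. Some differences in the number of genes (60 minus 50 days) turned in sign, and the cause was not tested. With scaling to a sum of 1000000, genes of at least 1 FPKM differed by -67.3 in place of 44, and genes of at least 1000 FPKM, whose ages did not overlap on the deposited values, by -3.67 in place of 9.67. Genes of at least 100 FPKM differed by -0.33 on the deposited values, by 27 with median-of-ratios scaling and by -27.5 to 19.0 with libraries left out. With scaling to a sum of 1000000 they differed by -70.7 (exact permutation p = 0.1). Genes above 0 differed by -9.67 and, with libraries left out, by -121 to 114. Groups of genes without library a at 60 days or under another scaling, and neighbours without the stretch on chromosome 11, were chosen after seeing the data; without that library 10 genes appeared and 8 disappeared.

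With the replicate letter as a block (paired by letter), 628 genes were called, 619 of them among the 637. Same-letter libraries of 50 and 60 days deviated together with correlations of 0.13, 0.05 and 0.19, not all above 0.1, so the letters were not taken as pairs, although each library correlated best with its own letter. Exact depth is unknown, which limits statements on genes listed near 0.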

Other observations

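Changes were spread over the genome. The share of tested IDs called from 50 to 60 days was read by the chromosome number in the ID. It ran from 3.23% on chromosome 7 to 5.72% on chromosome 18, beside 4.32% of all genes tested. Chromosome 18 had 33 rises (3.05%) and 29 falls (2.68%) among 1083 tested IDs. IDs with the number 0 had 12 rises (1.17%) and 26 falls (2.53%) among 1026. Over all genes tested 2.01% rose and 2.31% fell.

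IDs named newGene in the deposited table had more rises than falls. Of 327 tested, 12 rose (3.67%) and 4 fell (1.22%), where 285 (1.98%) rose and 336 (2.33%) fell among 14416 tested VIT_ IDs; the difference between the kinds was not tested.

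One highly abundant newGene ID had the largest standard error among the 10 largest gains in FPKM, with 2905, 4985 and 15183 FPKM at 50 days and 5906, 13748 and 13583 FPKM at 60 days. The ages overlapped (0.78 ± 0.58 SE on the log2 scale, adjusted p = 0.385 by limma).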
